A study of Arabidopsis thaliana with 8 samples.

Results

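The comparison set shoot apices of a PECT1 knockdown line of Arabidopsis thaliana against wild-type apices at 10 days of age. It took 4 of the 8 RNA-seq libraries of the series, 2 of each genotype, chosen by their labels, and covered the 17467 of 27655 loci that reached 1 RPKM or more in 2 or more of the 8 libraries. RPKM divides the reads of a gene by its length in kilobases and by the depth of the library. The knockdown line carries an artificial microRNA against PECT1 under the FD promoter (genotype label pFD::amiR-PECT1 knockdown), and the labels give the other genotype as wild type, with no accession name. Both genotypes grew on 1/2 MS plates at 23 °C in short days, and apices were taken at ZT 8, the eighth hour after lights on. The other 4 libraries were from apices of the same genotypes at 16 days and entered the model for its estimate of the spread. The labels name 1 line and do not tell whether replicates were grown apart, so a p-value here speaks only of the spread among these libraries, part of which may be technical.

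Phosphatidylethanolamine and phosphatidylcholine are the main phospholipids of plant membranes outside the plastid. PECT1 makes CDP-ethanolamine, the activated head group of phosphatidylethanolamine, and its loss shifts the balance towards phosphatidylcholine, a lipid that the florigen FT binds in Arabidopsis. FD is a bZIP factor of the shoot apical meristem that acts with FT, and not all cells of an apex use its promoter. The knockdown is therefore expected to be local, which was not tested. The RNA came from whole apices, in which fewer cells of a type and less RNA per cell cannot be told apart. In short days FT is low and Arabidopsis stays vegetative for weeks.

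The 4 libraries held an estimated 17.10 to 17.83 M reads each, and their replicates had a Pearson r, across genes, of 0.978 (wild type) and 0.975 (knockdown) on log2(RPKM + 1). The tissue label was checked on STM and KNAT1, homeobox genes of the meristem, which were present at 6.31 to 9.05 and 6.2 to 10.6 RPKM. The root genes CASP1, COBL9, EXP7 and NRT2:1 were at 0 to 0.13 RPKM, WOX5 was at 1.73 to 2.03, and PYK10, a beta-glucosidase abundant in roots and hypocotyls, was at 731 to 952. Summed markers of phloem (6 genes) were 79.5 and 68.5 RPKM in the wild-type pair against 82.3 and 88.4 in the knockdown pair, and those of xylem (7 genes) 82.5 and 76.1 against 90.5 and 90.4. Both sums were higher in the knockdown line without overlap, none of their members passed the test, and their part in the results below was not tested. Of the 4 day 10 libraries, 3 stood apart in a set of genes each: wild-type replicate 2 in 16 genes led by sulfur-deficiency genes, knockdown replicate 1 in 29 genes led by seed proteins, and knockdown replicate 2 in 31 genes led by jasmonate and stress genes. These sets are described near the end, and results that lean on them are given with and without the library.

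PECT1 itself (AT2G38670) was at 40.7 and 39.2 RPKM in the wild-type pair, against 35.3 and 37.1 in the knockdown pair. Both knockdown values lay below both wild-type values, but the nearest values of the groups, 39.2 and 37.1 RPKM, lay about as far apart as replicates did. The log2 fold change, on the log2(RPKM + 1) scale used throughout, was -0.14 ± 0.145 (SE) and did not pass in limma (Benjamini-Hochberg adjusted p = 0.860). At day 16 PECT1 was at 40.4 and 41.3 against 34.4 and 37 RPKM, again lower without overlap. FD (AT4G35900), whose promoter drives the microRNA, was at 1.73 and 2.23 RPKM in the wild-type pair, against 1.23 and 1.05 in the knockdown pair. FD also lay lower without overlap and did not pass (-0.47 ± 0.247, adjusted p = 0.753).

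The list of phosphatidylethanolamine and phosphatidylcholine synthesis held 22 loci, of which 21 were tested and 0 passed. The smallest p among them was that of CDS1, a CDP-diacylglycerol synthase, at 21.5 and 27.8 RPKM in the wild-type pair against 15.2 and 13.2 in the knockdown pair. Its log2 fold change was -0.75 ± 0.227 (limma, unadjusted p = 0.00841, adjusted p = 0.619). CCT1 and CCT2, which make CDP-choline in the parallel branch, were at 17.38 to 21.37 and 9.72 to 13.8 RPKM, with overlapping groups. AAPT1 and AAPT2, which join either head group to diacylglycerol, were at 35.6 to 40 and 9.01 to 11.7 RPKM. PLMT, a phospholipid methyltransferase, had 20.6 and 19.8 RPKM in the wild-type pair against 24.4 and 27.0 in the knockdown pair, without overlap. XPL1, a phosphoethanolamine methyltransferase, spread from 10.7 to 27.6 RPKM within wild type alone. The median log2 fold change of the list was -0.085 (-0.139 to 0.059 with 1 day 10 library left out), beside -0.016 for all genes tested. Of 16 loci for galactolipids and lipid remodelling, 12 were tested and 0 passed, with a median of 0.095; the desaturase FAD2 led them at 501 and 522 RPKM in the wild-type pair against 588 and 602 in the knockdown pair.

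Of the 17467 genes tested, 13 passed limma at an adjusted p under 0.05, which is 0.0744% of them: 9 were lower (0.0515%) and 4 higher (0.0229%) in the knockdown line. An unadjusted p under 0.05 was found for 1163 genes (6.66%), 618 lower (3.54%) and 545 higher (3.12%). The 2 libraries of each group did not overlap in 3676 genes that were lower (21%) and 3469 that were higher (19.9%), so lack of overlap alone is common with 2 libraries a side. The number passing was 7 without wild-type replicate 2 and 26 without knockdown replicate 2, of which 7 and 12 were among the 13.

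**Figure D1:**
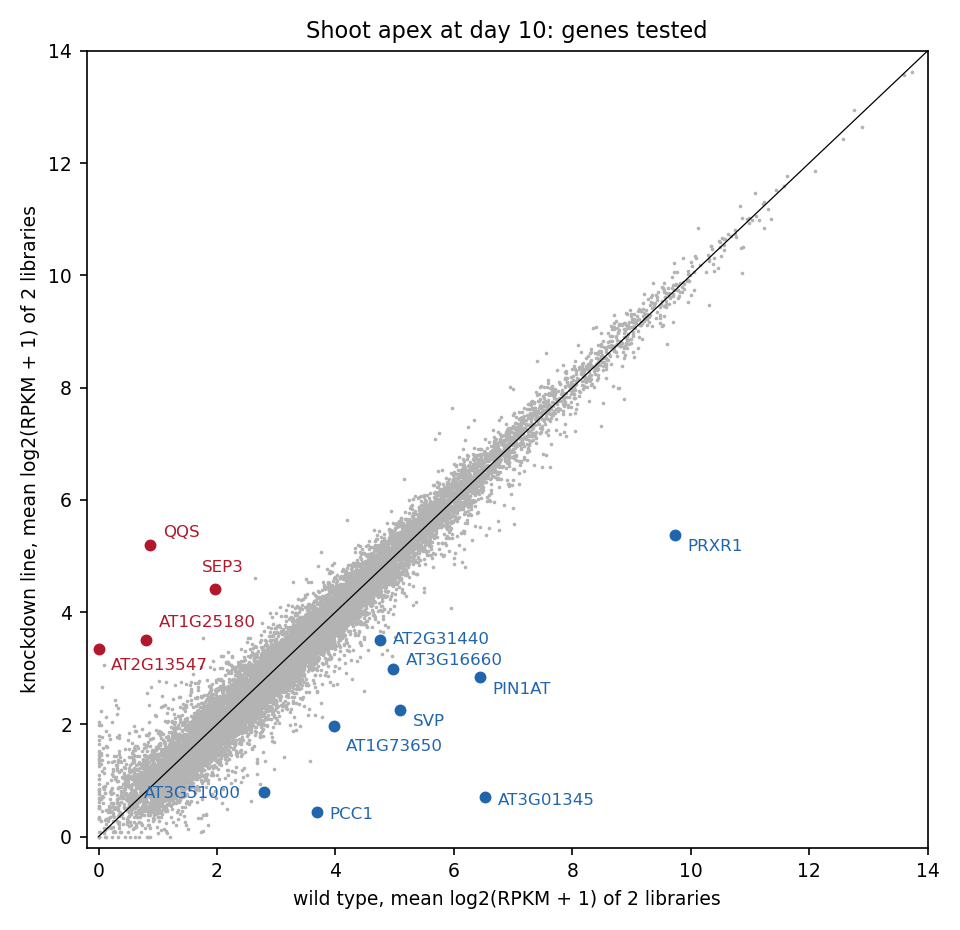
Mean log2(RPKM + 1) of the 2 knockdown libraries (vertical axis) against that of the 2 wild-type libraries (horizontal axis) at day 10; each grey point is 1 of the 17467 genes tested, the line marks equal levels, and the 13 genes that passed are named, red for higher and blue for lower. The 13 stand off the diagonal band, from QQS at the upper left to PRXR1 and AT3G01345 at the lower right.

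The largest fall was that of AT3G01345, an uncharacterized protein gene on chromosome 3 (129138 to 130749 in TAIR10.1, plus strand). It was at 84.6 and 98.5 RPKM in the wild-type pair, against 0.33 and 1.00 in the knockdown pair. The knockdown values did not exceed 1 RPKM, and the means lay 138-fold apart (log2 fold change -5.82 ± 0.242, limma adjusted p = 7.93e-06).

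PRXR1 (AT4G21960, chromosome 4, 11646109 to 11648644), a class III peroxidase gene, was the most abundant gene among the 13. Its values were 816 and 891 RPKM in the wild-type pair against 40.8 and 40.5 in the knockdown pair. The knockdown replicates were almost equal, and the fall was 21-fold (-4.36 ± 0.193, limma adjusted p = 7.93e-06).

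PIN1AT (AT2G18040, chromosome 2, 7841940 to 7843942) encodes a parvulin-type prolyl isomerase that in Arabidopsis acts on the flowering factors SOC1 and AGL24. It was at 87.8 and 84.4 RPKM in the wild-type pair, against 4.77 and 7.89 in the knockdown pair. The fall was 13.6-fold (-3.60 ± 0.218, limma adjusted p = 0.000102).

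SVP (AT2G22540, chromosome 2, 9579647 to 9583901), a MADS-box repressor of flowering that acts at FT, SOC1, SEP3 and GA20OX2, was at 34.1 and 32.0 RPKM in the wild-type pair, against 3.15 and 4.55 in the knockdown pair. The 2 groups lay 8.58-fold apart, far beyond the spread within either (-2.83 ± 0.205, limma adjusted p = 0.000340). AGL24, the closest relative of SVP and a promoter of flowering, was at 1.85 and 1.41 RPKM in the wild-type pair against 1.58 and 1.10 in the knockdown pair, with overlapping groups.

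PCC1 (AT3G22231, chromosome 3, 7845823 to 7846833), a gene that pathogens and the circadian clock control, stood at 8.90 and 15.9 RPKM in wild type. In the knockdown line it was listed at 0 in replicate 1 and was at 0.82 RPKM in replicate 2. It passed (-3.26 ± 0.329, limma adjusted p = 0.00443) but not with voom on estimated reads (adjusted p = 0.778), without wild-type replicate 2 (0.0557) or with no filter on low values (0.0535).

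The other 4 genes that fell belong to different families. AT1G73650, annotated as a steroid dehydrogenase of the DUF1295 family, was at 13.9 and 15.4 RPKM in the wild-type pair against 3.49 and 2.44 in the knockdown pair (-1.99 ± 0.211, adjusted p = 0.00552). AT3G16660, of the pollen Ole e 1 and extensin family, was at 31.6 and 29.1 against 6.88 and 6.98 RPKM (-1.98 ± 0.214, adjusted p = 0.00583). AT3G51000, an alpha/beta-hydrolase gene, was at 6.23 and 5.69 against 0.62 and 0.87 RPKM (-2.0 ± 0.249, adjusted p = 0.0186). AT2G31440, which encodes a protein like the gamma-secretase subunit APH1, had the smallest fall of the 9, from 25.8 and 26.4 to 10.4 and 10.3 RPKM (-1.25 ± 0.172, limma adjusted p = 0.0391). In none of the 4 did the groups come near each other, but each lost its call in some of 18 other settings. AT3G51000 passed in 10 of them and AT2G31440 in 8. AT1G73650 did not pass without wild-type replicate 1 (limma adjusted p = 0.0541) or replicate 2 (0.116), and AT3G16660 did not without either (0.0755 and 0.0959) or without knockdown replicate 1 (0.0616).

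Among the 4 genes that rose, QQS (AT3G30720, chromosome 3, 12349047 to 12349933), an orphan gene found in Arabidopsis thaliana that affects starch content, changed most. It was at 0.84 and 0.82 RPKM in the wild-type pair, against 28.1 and 44.6 in the knockdown pair. The rise was 43.8-fold, and the knockdown replicates differed from each other by more than the whole wild-type level (4.32 ± 0.273, limma adjusted p = 0.000116). NF-YC4, the protein partner of QQS, was at 36.6 and 30.5 RPKM in the wild-type pair against 48.7 and 44.7 in the knockdown pair and did not pass (0.47 ± 0.163, unadjusted p = 0.0169).

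SEP3 (AT1G24260, chromosome 1, 8593536 to 8596123), a MADS-box gene for floral organ identity, was at 3.37 and 2.48 RPKM in the wild-type pair, against 22.6 and 18.18 in the knockdown pair. It rose 6.97-fold (2.45 ± 0.258, limma adjusted p = 0.00552). It did not pass without wild-type replicate 2 (adjusted p = 0.0959), without knockdown replicate 1 (0.0616) or with no filter (0.0535).

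AT2G13547 (chromosome 2, 5646602 to 5647423) and AT1G25180 (chromosome 1, 8829564 to 8831390) are annotated as uncharacterized protein genes. AT2G13547 was listed at 0 in the wild-type pair, while it was at 9.59 and 8.64 RPKM in the knockdown line (limma adjusted p = 0.000880). AT1G25180 was at 0.54 and 0.99 against 10.5 and 10.3 RPKM, a 13.6-fold rise (2.70 ± 0.255, adjusted p = 0.00278). Both were all but silent in wild type and steady in the knockdown replicates. With voom on estimated reads 6 of the 13 genes did not pass: QQS, AT1G25180 and AT2G13547 (adjusted p = 0.0521, 0.0637 and 0.501) and, of those that fell, PCC1, AT3G51000 and AT2G31440 (0.778, 0.287 and 0.125).

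**Figure D2:**
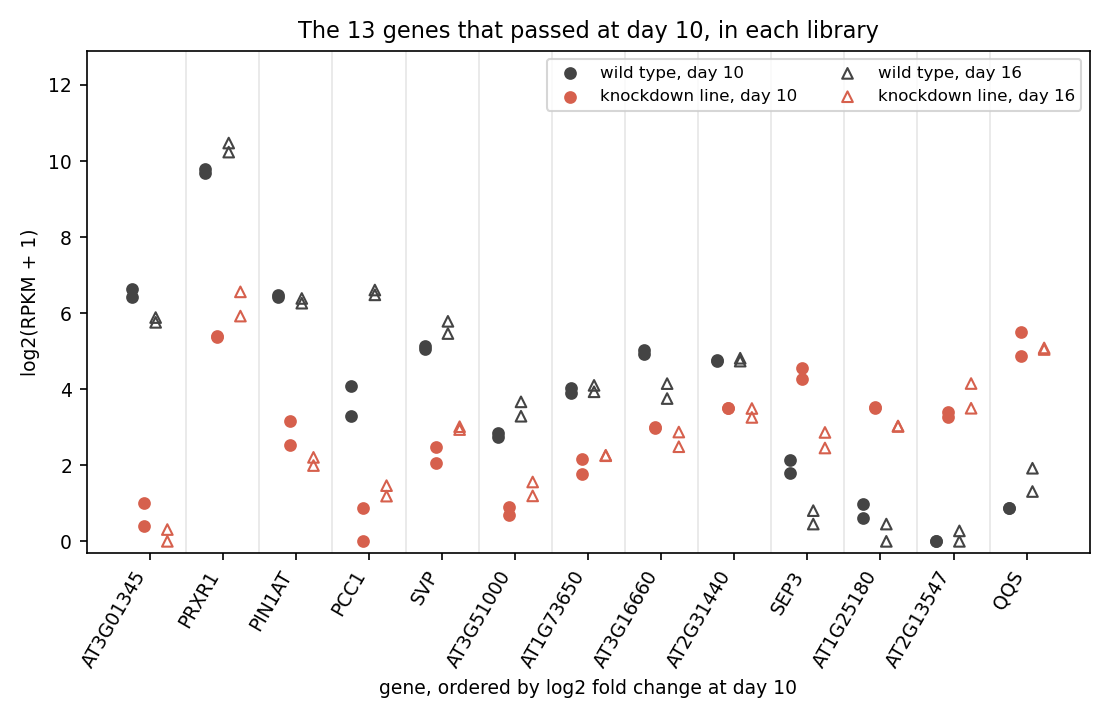
Level on the log2(RPKM + 1) scale (vertical axis) of the 13 genes that passed at day 10, ordered by log2 fold change; each symbol is 1 library, grey for wild type and red for the knockdown line, filled circles for day 10 and open triangles for day 16. At both ages the 2 genotypes do not overlap in any of the 13 genes, and PCC1 in wild type is higher at day 16 than at day 10.

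The libraries from 16 days, which entered the choice of the 13 genes through the spread and the filter, gave the same direction in all 13. With the day 10 libraries alone 12 genes passed, 11 of them among the 13; AT3G51000 and AT2G31440 did not (limma adjusted p = 0.0518 and 0.0524). At day 16, 12 of the 13 passed, and AT3G16660 did not (12.5 and 16.7 RPKM in the wild-type pair, 4.61 and 6.33 in the knockdown pair, limma adjusted p = 0.114). Over the whole set, 20 genes passed at day 16 (0.115%). PCC1 stood at 88.4 and 96.6 RPKM in wild type at day 16 against 1.76 and 1.28 in the knockdown line, so its genotype difference was -5.22 ± 0.329 there. The difference between the ages, -1.96 for PCC1, did not pass in limma, and 0 genes of 17467 passed in the interaction of genotype and age (288 at an unadjusted p under 0.05, 1.65%; 0 with voom). SEP3 was lower in both genotypes at day 16, at 0.75 and 0.37 RPKM in the wild-type pair against 4.48 and 6.28 in the knockdown pair.

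The genes next to the 13 were examined on the chromosome. Within 20 kb of a start of the 13 lay 81 other genes that were tested, of which 0 passed and 11 had an unadjusted p under 0.05, beside 6.66% of all genes tested. MSRA5, 116 bases upstream of PIN1AT on the same strand, was at 12.4 and 12 RPKM in the wild-type pair against 18.8 and 20.13 in the knockdown pair, opposite to PIN1AT (0.63 ± 0.200, unadjusted p = 0.0104). AT2G13550, which lies 905 bases beyond AT2G13547 on the other strand, was at 6.21 and 7.97 against 2.98 and 3.46 RPKM, again opposite to its neighbour (-0.93 ± 0.244, unadjusted p = 0.00349). None of these neighbours passed after adjustment.

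Near the genes that fell, 5 neighbours were lower and 4 higher at an unadjusted p under 0.05. ATNTH1, a DNA glycosylase gene that overlaps AT2G31440 by 75 bases on the same strand, was at 3.93 and 3.42 RPKM in the wild-type pair against 1.83 and 2.25 in the knockdown pair (-0.62 ± 0.223, unadjusted p = 0.0196). AT3G16670, of the same family as AT3G16660 and starting 4.63 kb from it, was at 6.85 and 5.32 against 1.97 and 1.17 RPKM (-1.47 ± 0.275, limma adjusted p = 0.251). AT3G22235, which encodes a small cysteine-rich membrane protein and starts 8.98 kb from PCC1, was at 10.4 and 11.3 against 0.86 and 2.52 RPKM (-2.21 ± 0.374, limma adjusted p = 0.143). The other lower neighbours were ZAR1, an immune receptor gene near AT3G51000, at 9.90 and 13.4 against 2.45 and 4.83 RPKM (-1.48, unadjusted p = 0.00167), and AT3G22210 near PCC1 (-0.61, unadjusted p = 0.0402). The higher ones, beside MSRA5, were RTH near AT3G51000 (0.62), AT1G73620 near AT1G73650 (0.44) and AT4G22000 near PRXR1 (0.47). How the authors divided reads between overlapping or related genes was not given in the sources used here, so values of such pairs are uncertain.

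**Figure D3:**
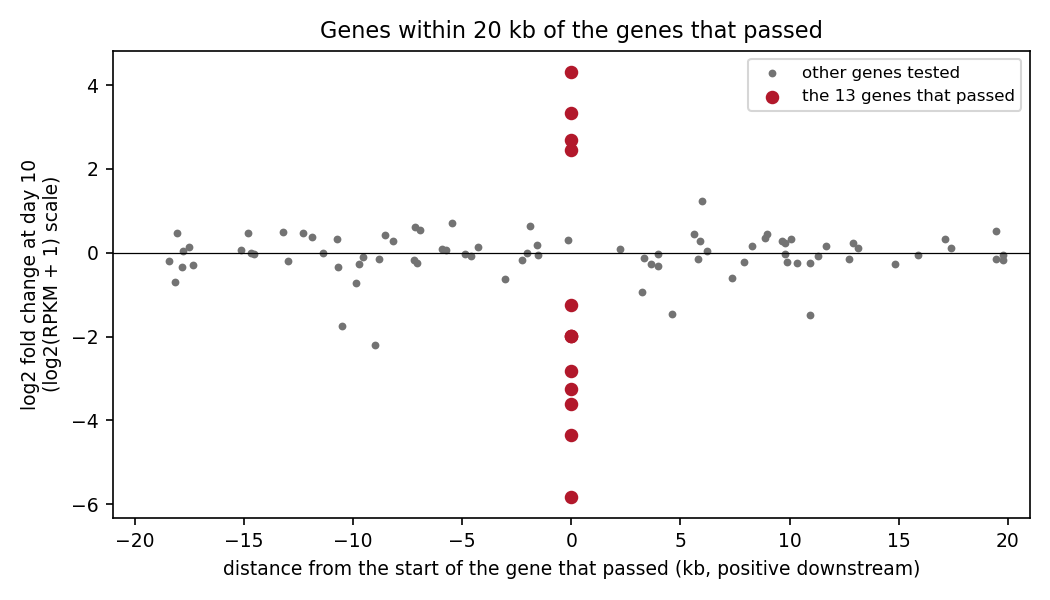
Log2 fold change at day 10 (vertical axis) of the genes tested within 20 kb of the 13 genes that passed, against the distance between gene starts in kb (horizontal axis, positive in the direction of transcription). The 13 genes sit at 0 kb in red, and 0 of the 81 grey neighbours passed.

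The 6 genes per direction with the next smallest p did not pass. On the lower side they were BCAT4, AT4G29270, AT3G22235, AT1G52100, AT2G25510 and PAM1, with adjusted p of 0.106 to 0.251. On the higher side they were AT1G67860, AT5G35525, AT1G77940, AT1G16850, NdhO and AT4G02040, with adjusted p of 0.0807 to 0.357. AT1G77940, a cytosolic ribosomal protein gene, was the most abundant of them, at 327 and 347 RPKM in the wild-type pair against 534 and 538 in the knockdown pair (0.67 ± 0.118). NdhO, a subunit of the chloroplast NDH complex, was at 68.0 and 72.8 against 127 and 112 RPKM (0.75 ± 0.144). AT4G29270, an acid phosphatase gene of the HAD family, was at 19.5 and 19.7 against 7.36 and 8.22 RPKM (-1.23 ± 0.197). In each of these 3 genes the spread within a group was small beside the gap, at sizes of 1.59 to 2.52-fold.

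The gene lists below are read against the shares over all genes, 3.54% lower and 3.12% higher at an unadjusted p under 0.05, 21% lower and 19.9% higher without overlap, and a median log2 fold change of -0.016. Outside SVP and SEP3, 0 members of the 35 lists passed over all genes.

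**Figure D4:**
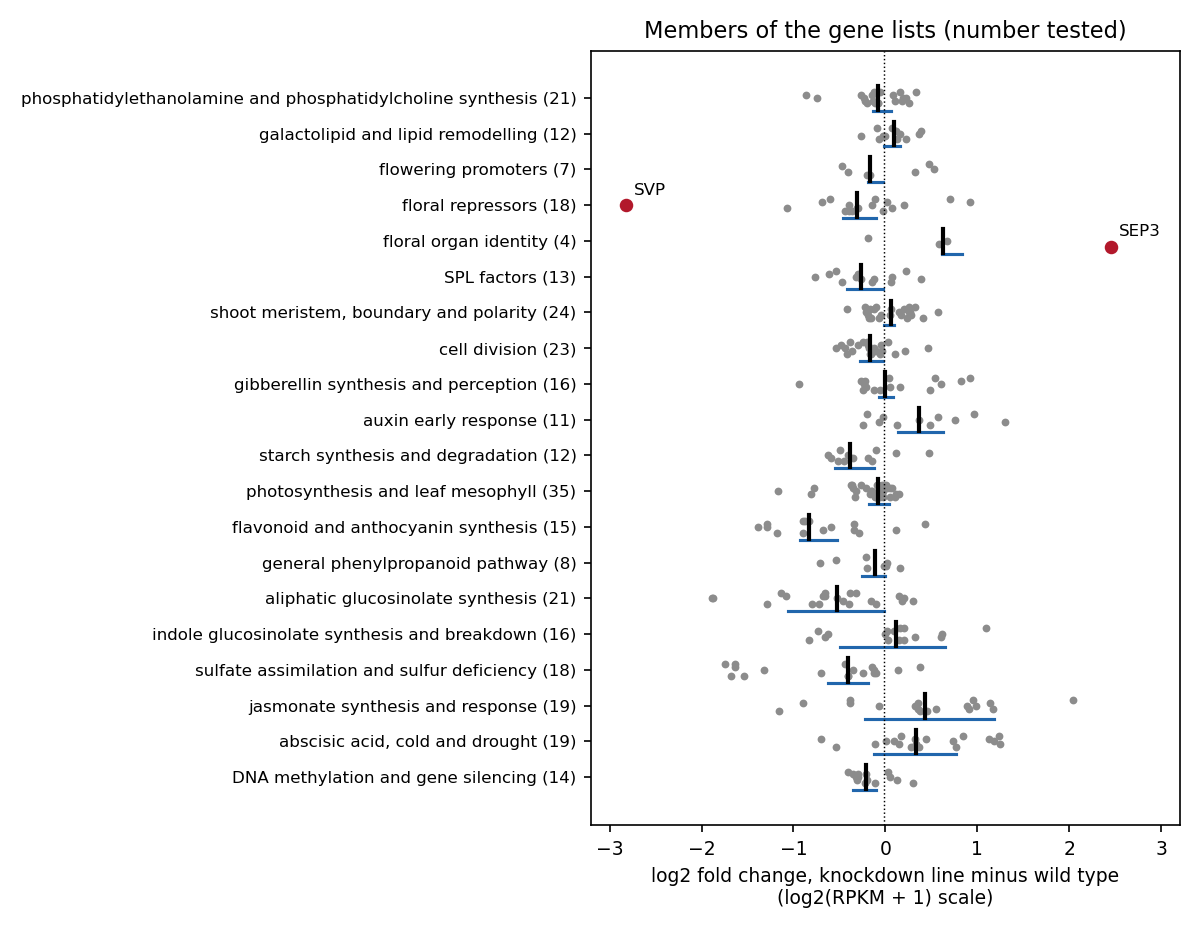
Log2 fold change at day 10 (horizontal axis) of the tested members of 20 gene lists (rows, number tested in brackets); grey points are members that did not pass, red points those that passed, black bars the list medians, blue lines the range of the median with 1 day 10 library left out, and the dotted line the median of all genes tested. SVP and SEP3 are the red points, and the flavonoid median of -0.835 lies farthest to the left with all libraries.

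Of 22 floral repressors, 18 were tested, 1 fell (SVP), and 3 others had an unadjusted p under 0.05. TEM2, an AP2/B3 repressor of FT, was at 25.3 and 30.2 RPKM in the wild-type pair against 18.7 and 8.42 in the knockdown pair (-1.07 ± 0.317, unadjusted p = 0.00710). MAF3 and MAF5, relatives of FLC, went opposite ways, MAF3 from 3.91 and 3.77 to 1.69 and 2.76 RPKM and MAF5 from 0.85 and 0.18 to 1.92 and 1.69 (unadjusted p = 0.0496 and 0.0179). FLC, the vernalization-controlled repressor, was at 8.28 and 5.06 against 4.93 and 4.50 RPKM. SMZ, an AP2-like repressor, was at 2.64 and 5.78 against 1.70 and 2.53 RPKM. Their median was -0.307, and it was -0.457 without wild-type replicate 1, -0.162 without wild-type replicate 2 and -0.107 without knockdown replicate 1.

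The flowering promoters, 7 of 17 tested, had 0 members passing and 0 at an unadjusted p under 0.05. SOC1, an integrator that SVP represses, was at 3.99 and 4.90 RPKM in the wild-type pair against 6.13 and 7.55 in the knockdown pair, without overlap. FT was listed at 0 in 3 libraries and at 0.18 RPKM in knockdown replicate 2, and TSF, its close relative, was listed at 0 in all 4. LFY, which commits a primordium to a flower, was at 0.67 and 0.49 against 1.15 and 0.80 RPKM. AP1 was listed at 0 in all 4 libraries, as were the organ identity genes SEP1, AP3, AG and STK. PI, a petal and stamen gene, was at 0.22 and 0.26 against 1.35 and 0.66 RPKM, so of the 14 organ identity genes SEP3 alone exceeded 6 RPKM in any library. SPL9, an age-pathway factor, was at 2.96 and 3.92 against 1.49 and 1.72 RPKM (-0.76 ± 0.241, unadjusted p = 0.0103), and 0 of the 13 SPL genes tested passed.

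Gibberellin genes were split. GA20OX2, a biosynthetic oxidase gene that SVP is known to repress, was at 3.67 and 3.79 RPKM in the wild-type pair against 8.11 and 6.66 in the knockdown pair (0.82 ± 0.271, unadjusted p = 0.0131). GA2OX1, which inactivates gibberellin, was at 1.06 and 1.12 RPKM in wild type, at 0.18 in knockdown replicate 1 and listed at 0 in replicate 2 (unadjusted p = 0.00783). Neither passed (limma adjusted p = 0.638 and 0.616), the other 14 tested members had larger p, and the median of the 16 was -0.009.

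Flavonoid and anthocyanin genes had a median of -0.835, the lowest of the lists with all libraries, which ranged from -0.934 to -0.523 with 1 day 10 library left out. The aliphatic glucosinolate list was lower without wild-type replicate 1 (-1.06), and without knockdown replicate 2 it (-0.699), the sulfate list (-0.627) and the salicylic acid list (-0.587) were. Of 20 loci, 15 were tested, 0 passed, and 9 were lower at an unadjusted p under 0.05 (0 higher). In 12 of the 15 both knockdown libraries lay below both wild-type libraries, beside 21% of all genes, and in 1 above, beside 19.9%. The list was drawn up with earlier results of these data known.

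The 4 genes of these 9 whose upstream region holds CACGTG are shown first. That hexamer is the G-box, which bZIP factors such as HY5 and bHLH factors bind. Each sequence is the 250 bases before the annotated start, 5′ to 3′ on the strand of the gene, in the TAIR10.1 assembly of RefSeq, with the G-box in capitals.
TT4, chr5:4488226-4488475, plus strand: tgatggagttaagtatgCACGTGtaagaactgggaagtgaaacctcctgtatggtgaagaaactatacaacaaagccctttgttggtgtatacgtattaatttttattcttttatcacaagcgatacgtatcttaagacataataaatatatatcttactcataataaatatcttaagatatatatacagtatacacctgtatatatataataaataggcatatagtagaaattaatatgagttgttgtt
CHIL, chr5:1563036-1563285, plus strand: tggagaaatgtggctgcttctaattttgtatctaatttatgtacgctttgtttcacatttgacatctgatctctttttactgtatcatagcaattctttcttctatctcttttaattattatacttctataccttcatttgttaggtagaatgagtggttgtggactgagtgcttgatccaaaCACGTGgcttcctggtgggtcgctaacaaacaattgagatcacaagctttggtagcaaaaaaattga
DFR, chr5:17166033-17166282, minus strand: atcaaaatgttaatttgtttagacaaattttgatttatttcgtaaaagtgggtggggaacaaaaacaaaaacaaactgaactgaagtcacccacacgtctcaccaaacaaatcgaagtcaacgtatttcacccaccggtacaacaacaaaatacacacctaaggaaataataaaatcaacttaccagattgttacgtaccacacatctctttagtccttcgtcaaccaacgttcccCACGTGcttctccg
UF3GT, chr5:21938397-21938646, minus strand: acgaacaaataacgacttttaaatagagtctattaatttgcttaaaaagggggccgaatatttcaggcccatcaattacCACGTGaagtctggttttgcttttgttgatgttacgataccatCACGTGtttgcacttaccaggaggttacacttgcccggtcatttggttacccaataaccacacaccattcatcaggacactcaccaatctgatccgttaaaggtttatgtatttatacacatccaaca
The first base of the hexamer lay 233 bases before the start of TT4, 67 before CHIL, 14 before DFR, and 171 and 128 before UF3GT. CACGTG reads the same on both strands. It was present in 4 of the 9 lower genes (44.4%), in 5 of the 15 tested members (33.3%) and in 7.5% of the same windows of 17333 genes tested. The 10-base CArG box to which MADS-box factors bind, on either strand, was in 0 of the 15 flavonoid windows, in 0 of the 13 windows of genes that passed, and in 2.6% of the windows of genes tested. The 9-base AAAATATCT, also searched on either strand, was in 2 of the 9 lower genes (FLS1 and MYBL2, 22.2%). It was in 2 of the 15 tested members (13.3%) and in 2.6% of the windows of genes tested. Among the 13 genes that passed, SEP3 held AAAATATCT and AT3G51000 held CACGTG. A match is a description of letters and not evidence of binding.

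TT4, chalcone synthase at the entry of the pathway, was at 29.8 and 49.7 RPKM in the wild-type pair against 17.8 and 15.1 in the knockdown pair. DFR, the first step specific to anthocyanins and tannins, was at 2.21 and 2.63 against 0.39 and 0.23 RPKM. LDOX, the next enzyme, was at 2.73 and 4.91 against 0.63 and 1.28 RPKM. In these 3 genes the groups did not overlap, with log2 fold changes of -1.18 ± 0.266, -1.38 ± 0.335 and -1.28 ± 0.359 (unadjusted p = 0.00131, 0.00213 and 0.00516; limma adjusted p = 0.516 to 0.613).

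FLS1, which makes flavonols, was at 7.94 and 9.64 RPKM in the wild-type pair against 3.09 and 5.68 in the knockdown pair. TT19, a glutathione transferase that carries anthocyanin, was at 1.48 and 2.16 RPKM in wild type, at 0.32 in knockdown replicate 1 and listed at 0 in replicate 2. CHIL, a chalcone isomerase-like protein, was at 17.7 and 25.6 against 14.5 and 11.5 RPKM. UF3GT, an anthocyanin glycosyltransferase, was low throughout, at 1.19 and 1.88 against 0.78 and 0.03 RPKM. Among the regulators, HY5, the bZIP factor of light responses, was at 6.12 and 5.65 RPKM in the wild-type pair against 3.42 and 2.21 in the knockdown pair (-0.87 ± 0.243, unadjusted p = 0.00525). MYBL2, a repressor of anthocyanin synthesis, was at 15.1 and 21.1 against 12.1 and 7.49 RPKM (-0.83 ± 0.24, unadjusted p = 0.00611). The activators PAP1 and TT8 were at most 0.62 RPKM in any of the 4 libraries and were not tested.

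Members outside this pattern were TT7, the flavonoid 3′-hydroxylase, at 1.53 and 1.14 RPKM in the wild-type pair against 1.98 and 2.28 in the knockdown pair, and UGT78D1, a flavonol rhamnosyltransferase, at 22 and 26.7 against 23.8 and 29.0 RPKM. The general phenylpropanoid pathway that supplies flavonoid synthesis had 0 of 8 genes at an unadjusted p under 0.05 and a median of -0.109. At day 16 the median of the 15 flavonoid genes was -0.366.

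Starch genes had 12 of 13 loci tested, 0 passing, a median of -0.380, and at an unadjusted p under 0.05 it had 3 members lower and 1 higher, the NF-YC4 gene given beside QQS. DPE2, the cytosolic glucanotransferase that uses maltose, was at 32.8 and 41.6 RPKM in the wild-type pair against 24.5 and 22.6 in the knockdown pair. SEX1, the glucan water dikinase that opens the granule to breakdown, was at 31.4 and 39.6 against 24.0 and 24.6 RPKM. SS4, which starts granules, was at 14 and 18.21 against 10.2 and 12 RPKM. The groups did not overlap in any of these 3, with unadjusted p of 0.0143, 0.0465 and 0.0407. The median of the list was -0.129 without wild-type replicate 2, -0.197 without knockdown replicate 1 and -0.550 without wild-type replicate 1.

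Among aliphatic glucosinolate genes, 21 of 23 loci were tested, 0 passed, and 6 were lower at an unadjusted p under 0.05. BCAT4, which starts the chain elongation of methionine, was at 56.5 and 65.7 RPKM in the wild-type pair against 17.5 and 14.1 in the knockdown pair (-1.89 ± 0.298, limma adjusted p = 0.106). MAM1, the condensing enzyme of the same cycle, was at 76.6 and 118 against 44.8 and 43.9 RPKM. IMD1, its dehydrogenase, was at 110.3 and 145 against 70.1 and 46.1 RPKM. In BCAT4, MAM1 and IMD1 both knockdown libraries thus lay below both wild-type libraries. Of the 21 tested members, 8 lay lower without overlap, beside 21% of all genes, and 0 higher, beside 19.9%.

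Of the core enzymes, CYP83A1, the second cytochrome P450 of the pathway, was at 75.02 and 153 RPKM in the wild-type pair against 41.9 and 44.6 in the knockdown pair, without overlap (-1.29 ± 0.355, unadjusted p = 0.00470). GSTU20, a glutathione transferase, was at 372 and 526 against 272 and 235 RPKM, also without overlap (-0.80 ± 0.269, unadjusted p = 0.0139). The sixth member lower at an unadjusted p under 0.05 was IIL1, an isomerase subunit of the elongation cycle, at 142 and 147 against 106 and 104 RPKM. CYP79F1, the first core enzyme, was at 7.69 and 55.8 RPKM in the 2 wild-type libraries and at 2.82 and 8.61 in the knockdown line, so wild-type replicate 2 alone set its mean. The sulfotransferase genes SOT17 and SOT18 overlapped between the groups, at 3.47 and 11.8 against 3.77 and 14.8 RPKM and at 10.1 and 21.6 against 9.08 and 29.8 RPKM. The median of the list was -0.523 with all libraries, -0.015 without wild-type replicate 2 and -1.06 without wild-type replicate 1. At day 16 BCAT4 was at 181 and 82.2 RPKM in the wild-type pair against 133 and 131 in the knockdown pair, and the median of the list was 0.054.

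In the list of indole glucosinolate synthesis and breakdown, 16 of 17 loci were tested and 0 passed. TGG1, the leading myrosinase, was at 387 and 439 RPKM in the wild-type pair against 253 and 268 in the knockdown pair (-0.66 ± 0.182, unadjusted p = 0.00481). TGG2, the second myrosinase, was at 135 and 138 against 92.4 and 83.8 RPKM (-0.62 ± 0.199, unadjusted p = 0.0109). Both kept non-overlapping groups at day 16, where TGG1 was at 468 and 371 against 203 and 289 RPKM. GSTF9, a glutathione transferase, was at 643 and 939.7 RPKM in the wild-type pair against 459.7 and 415 in the knockdown pair (-0.83 ± 0.259, unadjusted p = 0.00969). ESM1, which favours isothiocyanate products, was at 40.7 and 70.8 against 27.3 and 37.1 RPKM (-0.74 ± 0.28, unadjusted p = 0.0253). Of the 16 tested in the indole and breakdown list, these 4 lay lower without overlap, beside 21% of all genes. CYP79B3 alone lay higher without overlap, beside 19.9% of all genes, and the other 11 overlapped. Among those that overlapped, CYP83B1 was at 11 and 27.8 RPKM in the wild-type pair against 8.98 and 38.2 in the knockdown pair.

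Of 23 cell division genes, 0 passed and 0 had an unadjusted p under 0.05, and 10 lay lower without overlap, beside 21% of all genes, with a median of -0.164. CYCB2;1, a mitotic cyclin, was at 3.24 and 2.92 RPKM in the wild-type pair against 2.02 and 1.6 in the knockdown pair. PCNA2, a replication clamp, was at 50.3 and 51.2 against 47.0 and 45.9 RPKM. The median came to -0.027 without wild-type replicate 2. Meristem, boundary and polarity genes, 24 of 27 tested, centred on 0.056 with 0 members at an unadjusted p under 0.05. AS1, which keeps meristem genes off in leaves, was at 79.0 and 78.5 against 92.9 and 119 RPKM, and STM at 6.42 and 6.31 against 6.49 and 9.05 RPKM.

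The 35 photosynthesis and mesophyll genes had a median of -0.085 (0.040 without knockdown replicate 2), and 2 of them were lower at an unadjusted p under 0.05. RCA, the Rubisco activase, was at 1302.1 and 1384.5 RPKM in the wild-type pair against 1091.9 and 1061.9 in the knockdown pair (-0.32 ± 0.110, unadjusted p = 0.0160). PRK, phosphoribulokinase, was at 316 and 340 against 272 and 241 RPKM. Of 14 genes for DNA methylation and silencing, 0 passed. MET1, the maintenance methyltransferase of CG sites, was at 10.8 and 14.6 against 10.5 and 9.26 RPKM, and CMT3, a chromomethylase, at 24.9 and 29.5 against 24.8 and 21.7 RPKM. Of 16 autophagy genes 1 was higher at an unadjusted p under 0.05: ATG8I, whose product is joined to phosphatidylethanolamine, at 20.4 and 16.7 against 26.6 and 27.5 RPKM (unadjusted p = 0.0269).

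The 3 sets of genes high in a single library were those at least 4-fold above all 3 other day 10 libraries and at 5 RPKM or more. In wild-type replicate 2 they were 16 genes, among them APR1, APR2 and APR3, the sulfate-reducing enzymes, and LSU2 and LSU3, markers of sulfur deficiency. APR3 was at 88.1 RPKM there and at 9.81, 7.11 and 9.61 in wild-type replicate 1 and the knockdown libraries. APR2 was at 64.7 RPKM against 10.5, 9.36 and 7.67. The sulfate and sulfur-deficiency list, with 18 of 22 loci tested, had a median of -0.411 with all libraries and -0.191 without this library, and 0 members passed.

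Knockdown replicate 1 held 29 such genes, at least 13 of them annotated to late embryogenesis abundant, oleosin or seed storage protein families. OLEO2, an oil-body protein, was at 27.9 RPKM there, at 0.19 and 0.24 in wild type and listed at 0 in knockdown replicate 2. CRA1, a 12S storage protein, was at 6.59 RPKM against at most 0.06 in the other 3. The 4 seed markers together summed to 14.9 RPKM in that library, 0.93 in knockdown replicate 2, and 0.06 and 0 in wild type. The 29 genes summed to 450 RPKM in knockdown replicate 1 and to 14.5 to 15.4 in the other day 10 libraries. The set was chosen on the day 10 libraries, so that contrast follows from the choice. At day 16 the 29 genes summed to 101 and 327 RPKM in the knockdown line and to 12.7 and 30.4 in wild type, without overlap. The part of seed or seed-coat material in this difference was not tested.

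Knockdown replicate 2 held 31 such genes, with the jasmonate genes JAZ1, AOC1, AOC3 and MYC2 and the abscisic acid enzyme NCED3. JAZ1, a repressor of jasmonate response that jasmonate itself induces, was at 10.2 RPKM there and at 0.42, 1.72 and 0.75 in the other 3. MYC2, the main jasmonate factor, was at 15.9 RPKM there and listed at 0 in the other 3. The 31 genes together came to 338 RPKM, where the 3 others had 35.1 to 47.5. At day 16 it was 70.5 and 423 RPKM in the knockdown line and 120 and 309 in wild type, so it was high in 1 library of each genotype. The jasmonate list (19 of 23 tested, 0 passing) had a median of 0.435 that became -0.221 without this library. The medians of the touch list and the abscisic acid list, 0.298 and 0.337, became -0.297 and -0.127.

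**Figure D5:**
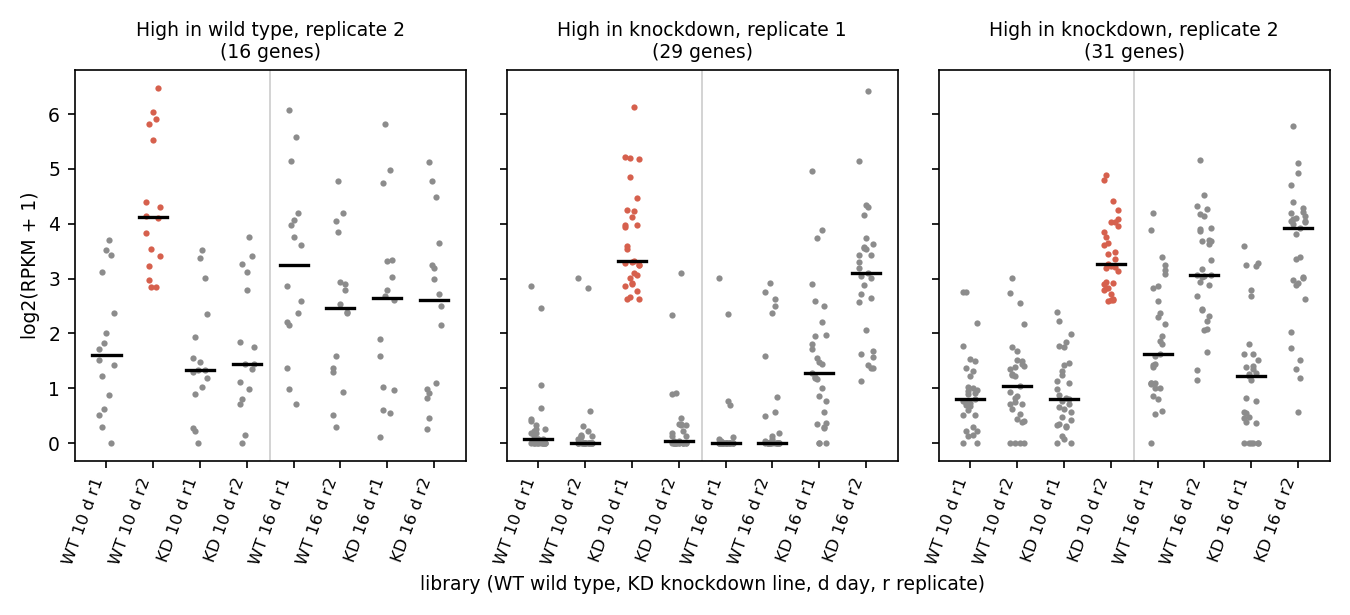
Level on the log2(RPKM + 1) scale (vertical axis) in all 8 libraries (horizontal axis) of the genes at least 4-fold higher in 1 day 10 library than in the 3 others; each point is a gene, red in the library that defined the set, and black bars are medians. The median of the 29 genes of knockdown replicate 1 is near 0 in the wild-type libraries of both ages and above them in both knockdown libraries at day 16.

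Members of the jasmonate list outside that set went both ways. Without overlap, 6 lay higher, beside 19.9% of all genes, and 2 lower, beside 21%. At an unadjusted p under 0.05 there was 1 of each. TIFY7, the JAZ9 repressor, was at 16.2 and 13.5 RPKM in the wild-type pair against 21.9 and 36.3 in the knockdown pair (0.89 ± 0.387, unadjusted p = 0.045). VSP2, a vegetative storage protein gene that jasmonate induces, was at 72.8 and 115 RPKM in the wild-type pair against 47.8 and 34.5 in the knockdown pair (-1.15 ± 0.298, unadjusted p = 0.00323). LOX2, a chloroplast lipoxygenase gene, was at 20.9 and 30.6 against 12 and 14.3 RPKM. In VSP2 and LOX2 both knockdown values lay below both wild-type values, and none of the 3 genes passed.

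Hormone and housekeeping lists held few members with a small p and 0 that passed. Of the early auxin genes, 11 of 11 were tested, with a median of 0.361 and 1 member higher at an unadjusted p under 0.05: IAA19, an auxin-induced repressor, at 19.1 and 8.14 RPKM in the wild-type pair against 25.1 and 41.9 in the knockdown pair (1.30, unadjusted p = 0.0343). The type-A cytokinin regulators had a median of 0.223 over 8 genes, with 1 higher. The salicylic acid list had a median of -0.311 over 10 genes, and its 1 lower member was WRKY70, at 2.56 and 10.6 against 1.52 and 1.73 RPKM, one of the 16 genes of wild-type replicate 2. The salicylic acid median was -0.160 without that library and -0.587 without knockdown replicate 2. The clock list had a median of -0.182 over 17 genes with 1 lower, which was -0.316 without wild-type replicate 1, -0.026 without wild-type replicate 2, -0.101 without knockdown replicate 1 and -0.012 without knockdown replicate 2, and the endoplasmic reticulum list -0.097 over 14 genes with 1 lower. Heat shock (4 genes tested), phosphate starvation (9), microRNA pathway (6) and wax genes (6) had 0 members at an unadjusted p under 0.05, with medians of -0.011, -0.112, -0.205 and 0.160. With 1 day 10 library left out these medians ranged from -0.265 to 0.457, from -0.258 to 0.034, from -0.303 to -0.025 and from -0.015 to 0.307, and those of the auxin and cytokinin lists from 0.140 to 0.624 and from 0.098 to 0.270. The 11 trichome and stomatal markers had a median of 0.037 and 1 lower member, TRY, an inhibitor of trichome fate, at 1.6 and 2.31 against 0.65 and 0.96 RPKM.

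The authors' deposited tables for day 10 list 320 loci as higher and 331 as lower in the knockdown line, with folds of at least 2. Of these, 314 and 326 were in the RPKM table, 3 and 8 passed limma, and 191 and 269 lay on the stated side without overlap. Over all genes tested, 19.9% lay higher and 21% lower without overlap. The authors' loci were chosen from this same comparison, so their lack of overlap follows in part from that choice. Of the 314, knockdown replicate 1 alone was at least 4-fold above the other 3 libraries in 49, and knockdown replicate 2 alone in 56. Means of the RPKM values lay on the other side in 17 of the 314 and 29 of the 326.

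In the authors' deposited table the 3 single-library seed genes AT3G17520, LEA7 and OLEO1 have folds of 383, 267 and 486. AT1G32630 has a fold of 3463 in the authors' deposited table, while its RPKM values were 5.72 and 5.29 in wild type and 5.38 and 9.69 in the knockdown line. Of the 13 genes, AT1G25180 and AT1G73650 are not in the authors' deposited tables, which list instead the overlapping loci AT1G25175 at a fold of 13.7 and RABA6a at -4.87. The RPKM values of RABA6a were 1.83 and 1.64 in wild type and 1.22 and 1.34 in the knockdown line, and those of AT1G73650 differed 4.95-fold. APG8A, the autophagy gene ATG8A, is in the authors' deposited table of lower genes at -5.66, while its RPKM values were 18.4 and 10.7 in wild type and 22.1 and 19.6 in the knockdown line. Such loci were read here from the RPKM values alone.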

How the data were processed

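RNA was sequenced from shoot apices. The authors deposited RPKM values per locus, per the file headers, in a file whose name says RPM; low values are steps of 1 read scaled by gene length, so they were used as RPKM. Libraries were directional mRNA libraries, per the labels' protocols, and the genome build was TAIR 10, per the submitters' processing notes. How reads were aligned, counted and split by strand or between genes was not given in the sources used here. For day 10 the authors deposited 2 further tables of higher and lower loci with a linear fold (a ratio), written with a minus sign as a signed score for lower loci, and a p-value, per the file headers; its test was not given in the sources used here.

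Symbols, positions and upstream sequences came from the RefSeq annotation and genome of TAIR10.1, which matched 27433 of 27655 loci. Depth was estimated from the steps in low values at 15.54 to 18.21 M reads per library, with 98.6% to 100% of those values within 0.1 of a whole read. A level of 1 RPKM in a gene of 1 kb therefore stands for about 15.54 to 18.21 reads, and for fewer in a shorter gene. Sampling error is thus not small at low levels and shrinks as reads increase. Replicates differed by more than sampling noise (chi-square per degree of freedom 20.7 to 34.0). That figure is a single value per group and does not separate low genes from abundant ones.

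The test was limma 3.58.1 under R 4.3.3, two-sided, on log2(RPKM + 1) with a trend in intensity, for genes reaching 1 RPKM in 2 libraries or more, with 1 coefficient per group, all 8 libraries sharing the spread (4 residual and 5.8 prior degrees of freedom) and Benjamini-Hochberg adjustment over 17467 genes. Folds are ratios of mean RPKM. The added 1 shrinks the log2 change of low genes. Only genes with an adjusted p under 0.05 are said to have risen or fallen. The fit was tested on simulated data with noise drawn independently for each gene. Such data hold no sets of genes high in a single library, so that test is no support for the calls here.

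Lists held 571 entries in 35 lists, of which 553 were kept; 17 were dropped since their locus carries another symbol in the annotation and 1 was not in the table. Named genes were PECT1, FD, all genes that passed, the 6 next per direction by p with 5 RPKM and no overlap, the most abundant and lowest-p members of each list, the largest folds in the authors' tables and the neighbours of genes that passed. Other genes named, such as the single-library sets, were chosen after their values were seen. The comparison, lists and alternatives were chosen with earlier results of these data known. Same-numbered replicates are not known to share a batch, and with 2 numbers no pairing could be shown.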

Additional observations from a re-analysis of the deposited data

Results flagged for a closer look

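Of the 213 named genes tested, 6 changed sides between the ages. In these both knockdown libraries lay on one side of both wild-type libraries at day 10 and on the other side at day 16. Over all genes tested this was so in 422 of 17467 (2.42%), a share close to that among the named genes. The difference of the 2 genotype effects (day 16 minus day 10, log2 scale) was 0.69 for FD, -0.75 for FAD3, -0.89 for ARR7, -1.98 for RHL41, 0.65 for PHT1;4 and -0.44 for NET2D. None of the 6 differences passed in limma (adjusted p = 1.00 after rounding). FD had 1.73 and 2.23 RPKM in the wild-type pair against 1.23 and 1.05 in the knockdown pair at day 10, and 2.38 and 1.74 against 2.49 and 2.57 at day 16.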

How the results depend on the processing

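In 18 alternatives the 4 genes AT3G01345, PRXR1, PIN1AT and SVP passed every time. The number of genes passing, 13 as reported, ranged from 7 to 26 with 1 library left out (3 to 17 higher, 4 to 9 lower); it was 7 with voom on estimated reads, of which 1 was higher. With the replicate number as a block it was 20, of which 14 were lower and 13 were shared with the reported genes, but no pairing of the numbers was shown (correlation of deviations 0.185 between the day 10 groups). The other settings gave 10 to 14 genes. Leaving out a day 10 library leaves that group with 1 library, which is then assumed to vary like the others. Of 1197 values of 67 named genes under alternatives, 1154 kept their direction and side of the threshold, 32 no longer passed, 11 passed newly and 0 reversed; the cause was not tested. The filter, the trend, the block and the day 16 libraries cannot alter the day 10 log2 fold change of a gene, so direction was fixed in those settings. Leaving out 1 library also cannot reverse a gene whose groups did not overlap. The absence of reversals is therefore no separate support for these genes. Of 417 list medians, some of which the same settings could not move, 36 moved by more than the spread between library pairs. The interaction had 0 genes under every alternative that could give it, which the day 10 libraries alone could not.

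With 2 libraries a group, the effect seen for PECT1 was no larger than its SE, which draws on the spread in all groups. Levels under about 1 RPKM rest on few reads, as do somewhat higher levels in short genes.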
